A study of Mus musculus with 19 samples.

Results

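The m3C methyltransferase genes are the group described here: Mettl8, Mettl2 and Mettl6, which encode enzymes, with Dalrd3 and Sars, which encode their partners. They were taken by name and make up 5 of the 26621 genes in the RNA-seq count table. All 5 were among the 13105 genes kept by the filter on low counts. The samples were neural progenitor cells (NPCs), the dividing cells that give rise to neurons and glia, from the mouse cerebral cortex at embryonic day 17.5, grown on Matrigel with bFGF and EGF. RNA-seq came from 6 libraries labelled Mettl8-cKO (conditional knockout) and 6 labelled WT (wild type). HAC-seq, in which hydrazine and aniline cut RNA at modified cytidines, was made from 3 cKO and 4 WT libraries. Both genotypes received the same culture treatment. The labels used here give neither the Cre driver, the deleted exons nor the number of animals, and do not say whether replicates are separate cultures, so p-values measure only the spread between these libraries, which may be technical.

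3-methylcytidine (m3C) is a methylated base of the anticodon loop of certain tRNAs. METTL8 places it on the mitochondrial tRNAs for threonine and for serine (UCN). METTL2 and METTL6 work in the cytosol: METTL2 on tRNAs for threonine and arginine, in the case of arginine together with DALRD3, as known from human cells, and METTL6 on serine tRNAs, together with the seryl-tRNA synthetase that Sars encodes.

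The 12 RNA-seq libraries fell into 2 library sets by their names. Set 1 held cKO replicates 1 and 2 and WT replicates 1 to 3, and set 2 held cKO replicates 3 to 6 and WT replicates 4 to 6. Totals ran from 11830839 to 15766429 counts in cKO libraries and from 15096888 to 18863781 in WT libraries, so depth moved with genotype; its part in the results was not tested. Progenitor markers were present, with all 10 tested and a summed level of 7152 to 11442 CPM (counts relative to library size, scaled by TMM) in cKO libraries and 7453 to 11865 in WT libraries. The 5 microglia markers summed to at most 0.574 CPM in cKO libraries and 0.331 in WT libraries, with C1qa and Tmem119 at 0 in each library. The 4 fibroblast markers summed to at most 3.31 CPM in cKO libraries and 1.75 in WT libraries, and the 4 endothelial markers to at most 2.32 CPM in cKO libraries and 2.81 in WT libraries. Markers of 3 other types were present: the 5 astrocyte markers summed to 480 to 2379 CPM in cKO libraries and 743 to 2350 in WT libraries, the 6 oligodendrocyte lineage markers to 369 to 1113 CPM in cKO libraries and 423 to 1118 in WT libraries, and the 6 neuron markers to 1714 to 2591 CPM in cKO libraries and 1677 to 2420 in WT libraries. Single genes carried 2 of these sums: Mtap2 (Map2) averaged 1898 CPM in cKO libraries and 1832 in WT libraries, and the progenitor marker Fabp7 averaged 7461 CPM in cKO libraries and 7808 in WT libraries. The neuron markers Tubb3, Dcx, Neurod1 and Neurod6 each averaged 13.9 to 69.4 CPM in cKO libraries and 12.4 to 77.9 in WT libraries, and Rbfox3 did not pass the filter. The part of these cell types in the results below was not tested.

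Mettl8 stands on the minus strand of chromosome 2, where the RefSeq annotation of GRCm38.p6 places it at chr2:70964561-71056388. It overlaps Dcaf17 by 647 bp, a plus-strand gene for a substrate receptor of a ubiquitin ligase. In the RefSeq start tables the 2 genes start back to back with 137 bases between the starts. That Mettl8 start, chr2:71055606, lies inside the annotated span, whose outer end gives the overlap. Mettl6, on the minus strand at chr14:31463715-31495059, also starts back to back with Eaf1, with 38 bases between the starts. The annotated spans of Mettl6 and Eaf1 do not overlap and lie 20 bp apart. The annotated span of Dalrd3, on the plus strand, likewise begins 48 bp from the start of Ndufaf3, a minus-strand gene, but its window in the table lies further inside that span. The start windows of Mettl8 and Mettl6, the methyltransferase genes with a window in the table, are shown because reads near them could come from either gene. Each window holds 250 bases before the start and 50 from it on, on the strand of the member, and capitals mark the bases between the 2 starts.
Mettl8, chr2:71055557-71055856, minus strand: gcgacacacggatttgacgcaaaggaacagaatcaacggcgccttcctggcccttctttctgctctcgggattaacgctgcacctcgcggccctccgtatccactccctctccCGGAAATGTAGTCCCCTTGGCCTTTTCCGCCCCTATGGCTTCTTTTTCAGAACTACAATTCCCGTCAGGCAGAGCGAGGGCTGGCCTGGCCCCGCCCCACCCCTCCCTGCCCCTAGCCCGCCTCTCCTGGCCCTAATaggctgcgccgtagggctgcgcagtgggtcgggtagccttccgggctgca
Mettl6, chr14:31494991-31495290, minus strand: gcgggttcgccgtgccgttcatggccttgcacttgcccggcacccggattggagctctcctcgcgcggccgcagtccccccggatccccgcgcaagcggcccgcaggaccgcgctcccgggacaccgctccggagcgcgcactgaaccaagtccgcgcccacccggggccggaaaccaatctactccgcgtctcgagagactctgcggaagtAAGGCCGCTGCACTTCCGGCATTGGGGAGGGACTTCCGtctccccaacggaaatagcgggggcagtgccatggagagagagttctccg

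The Mettl8 window had a GC content of 63% with 21 CpG, and the Mettl6 window 69% with 36 CpG, against a median of 52.7% and 7 CpG over 27025 windows. Windows were found for 4 of the 5 members. Dalrd3 had 54.7% GC with 20 CpG, and Sars 56.7% with 14 CpG. Short motifs were searched on both strands. TATAAA was in none of the 4 windows and in 14.2% of all windows. CCAAT occurred 3 times in the Mettl6 window and in no other member's, against 37.9% of all windows. GGGCGG occurred 2 times for Mettl8, 1 time each for Dalrd3 and Sars and not for Mettl6, against 35.9% of all windows. CGGAAG was in all 4 windows, against 17.2% of all windows, with 1 match for Mettl8 and Sars, 2 for Dalrd3 and 3 for Mettl6. No match of it overlapped one of GGGCGG in these windows. Both GGGCGG and CGGAAG hold a CpG, and the 4 windows had 14 to 36 CpG against a median of 7. Shares over all windows are thus no like background for them, and windows of like CpG content were not compared.

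Mettl8, the targeted gene, was not lower in the libraries labelled cKO. Its level there was 75.0, 74.7, 67.1, 59.2, 78.0 and 80.8 CPM in replicates 1 to 6, against 39.1, 54.7, 58.6, 35.9, 35.9 and 55.7 CPM in WT replicates 1 to 6. Each cKO library lay above each WT library, with the lowest cKO library just above the highest WT one. Over all tested genes, 0.0382% (5 genes) had all 6 cKO libraries above all 6 WT libraries. The table gives 1 count per gene, so reads from the deleted part cannot be told apart from reads from the rest of the gene, and the whole-gene count does not check the deletion. In these bulk samples a change in the number of cells of a type and a change in RNA per cell cannot be told apart. Directions below go by the labels.

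The mean was 72.5 ± 7.94 CPM in libraries labelled cKO and 46.6 ± 10.7 CPM in WT libraries (SD, n = 6 each), a fold of 1.59 (log2 fold change 0.67, SE 0.119, 95% interval 0.42 to 0.92). Its unadjusted p of 2.02e-05 was the smallest of all 13105 genes in edgeR's quasi-likelihood test, and the Benjamini-Hochberg adjusted p was 0.265, so the gene did not pass the threshold of 0.05. No gene did: edgeR called 0 genes (0%), with 805 (6.14%) under an unadjusted p of 0.05, while DESeq2 called 2 (0.0153%) and limma voom 1. By size, 54 genes had a higher log2 fold change than Mettl8 and 184 a larger absolute one. The call on Mettl8 depended on the tool and on the libraries. Its adjusted p was 0.000755 in DESeq2, 1.96e-12 in edgeR without the filter on low counts, 0.0694 in limma voom and 0.0376 in edgeR without WT replicate 6, and it ran from 0.0503 to 0.982 when any other single library was left out. The log2 fold change lay between 0.56 and 0.78 in all 21 alternatives. An exact permutation test within library sets, two-sided, gave p = 0.00286, the smallest that its 350 splits allow.

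**Figure D1:**
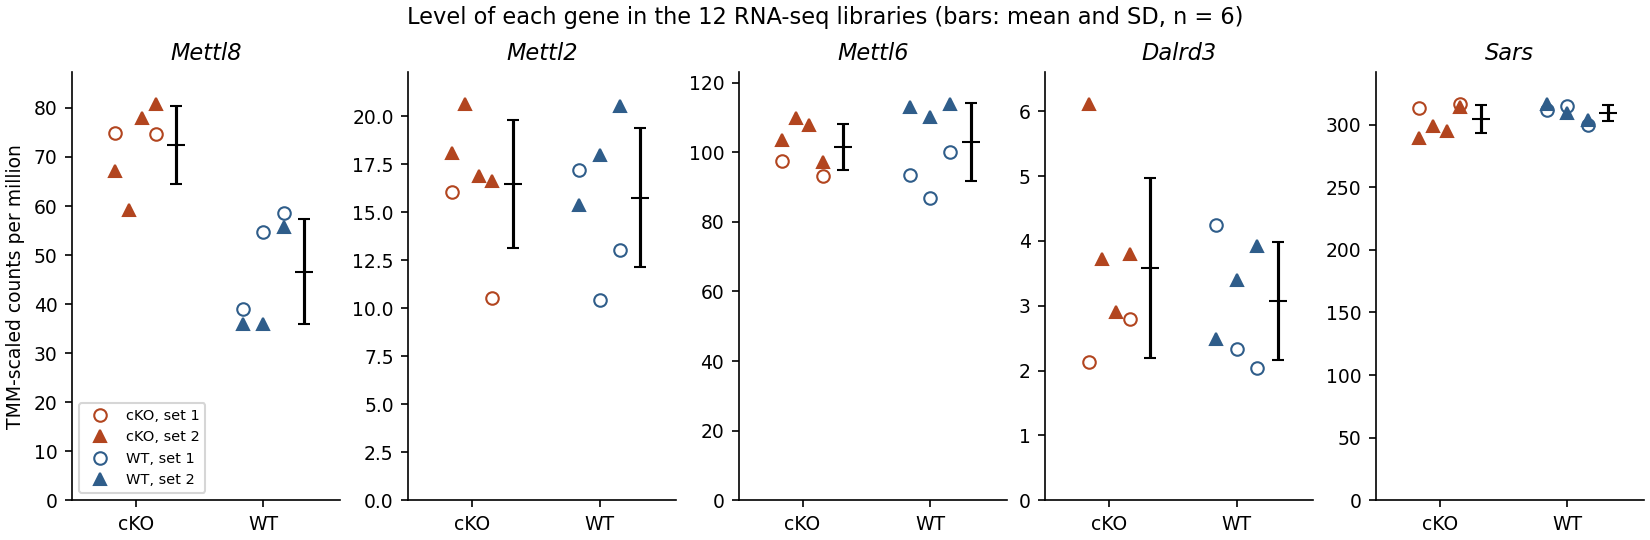
TMM-scaled CPM of each gene (vertical axis, from 0) in the 6 cKO and 6 WT RNA-seq libraries; open circles are set 1, filled triangles set 2, and bars give the mean and SD. Mettl8 is the gene whose cKO and WT libraries do not overlap, 59.2 to 80.8 against 35.9 to 58.6; the other 4 genes overlap.

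Mettl8 differed in the same direction in both library sets. In neither set alone did it pass the threshold (edgeR adjusted p = 0.999 in set 1 and 0.375 in set 2). In set 1 it averaged 74.8 ± 0.211 CPM in cKO libraries (SD, n = 2) and 50.8 ± 10.3 CPM in WT libraries (SD, n = 3), a log2 fold change of 0.56 (SE 0.150). In set 2 the values were 71.3 ± 9.97 CPM in cKO libraries (n = 4) and 42.5 ± 11.4 CPM in WT libraries (n = 3), a log2 fold change of 0.75 (SE 0.150). The difference between the 2 sets was 0.19 (SE 0.243, edgeR adjusted p = 1.00 after rounding, unadjusted p = 0.452), and leaving out WT replicate 3 gave 0.075, the lowest of the leave-one-out values, while leaving out WT replicate 6 gave 0.43, the highest. In that interaction test edgeR called 0 of 13105 genes (0%), with 464 under an unadjusted p of 0.05. The biological coefficient of variation that edgeR estimated was 14.2% for Mettl8, against a trend of 10.1% for genes of its abundance.

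Mettl2, the cytosolic enzyme for threonine and arginine tRNAs (chr11:105126425-105141146), had 16.1, 10.5, 18.1, 20.6, 16.9 and 16.6 CPM in libraries labelled cKO, against 17.2, 10.4, 13.04, 15.3, 18.0 and 20.5 CPM in WT libraries. The groups overlapped over nearly their whole range. The log2 fold change was -0.0068 (SE 0.133, 95% interval -0.28 to 0.27, edgeR adjusted p = 0.996). Dalrd3, its partner for arginine tRNAs (chr9:108567484-108572773), had 2.14, 2.80, 6.12, 3.73, 2.90 and 3.81 CPM in libraries labelled cKO, against 4.24, 2.34, 2.04, 2.48, 3.40 and 3.92 CPM in WT libraries. It rested on 31 to 88 counts a library, and the groups overlapped. Its log2 fold change was 0.12 (SE 0.249, 95% interval -0.41 to 0.64, edgeR adjusted p = 0.958), the widest interval of the 5 genes.

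Mettl6, the cytosolic enzyme for serine tRNAs, had 97.5, 93.2, 103.7, 109.8, 107.9 and 97.1 CPM in libraries labelled cKO, against 93.4, 86.7, 100.2, 113.0, 110.2 and 113.9 CPM in WT libraries. The groups overlapped, and the 3 highest values were WT 6, WT 4 and WT 5. The log2 fold change was -0.048 (SE 0.0586, 95% interval -0.17 to 0.074, edgeR adjusted p = 0.915). Sars, the seryl-tRNA synthetase (minus strand, chr3:108424864-108445259), had 313.2, 316.6, 289.8, 298.8, 295.2 and 314.2 CPM in libraries labelled cKO, against 311.9, 315.3, 299.6, 316.6, 309.8 and 304.0 CPM in WT libraries. Here 3 cKO libraries, all of set 2, lay under the lowest WT library. The log2 fold change was -0.018 (SE 0.0457, 95% interval -0.11 to 0.078, edgeR adjusted p = 0.969).

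**Figure D2:**
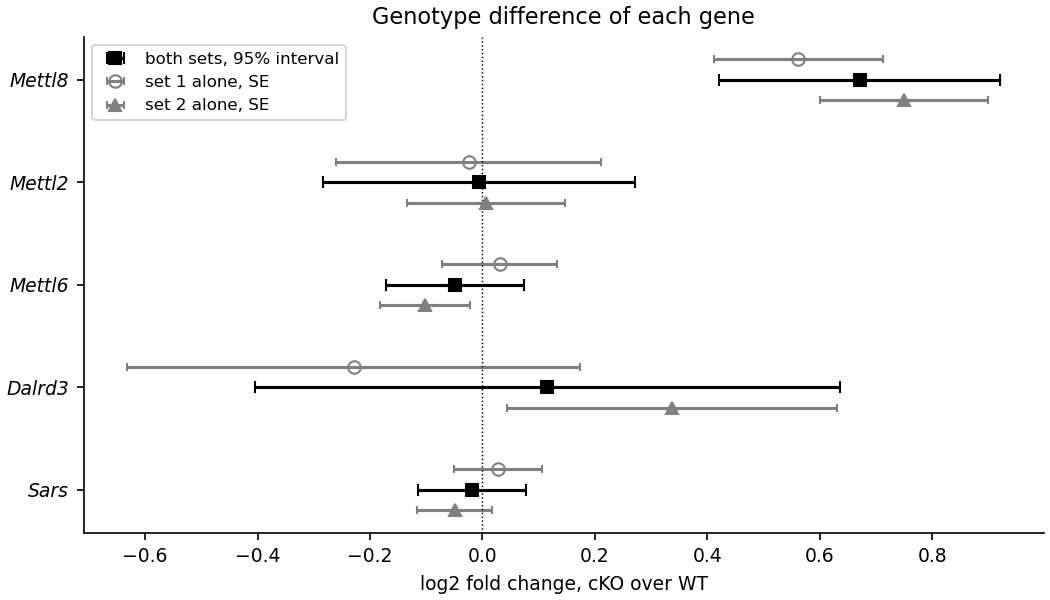
Log2 fold change of cKO over WT (horizontal axis) for each gene; squares give both sets together with the 95% interval, open circles set 1 and filled triangles set 2 with the SE. The interval of Mettl8, 0.42 to 0.92, lies above 0, and the intervals of the other 4 genes include 0.

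Exact permutation within sets gave p = 0.997 for Mettl2, 0.626 for Dalrd3, 0.323 for Mettl6 and 0.480 for Sars. Read as folds, the intervals allowed a Mettl2 level between 0.821 and 1.21 times that of WT libraries and a Sars level between 0.924 and 1.06 times it. For Mettl6 the bounds were 0.888 and 1.05 times the WT level, and for Dalrd3 0.755 and 1.55 times it.

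Set differences were called for 2 of the 5 members, near the share over all genes. Mettl2 was higher in set 2 than in set 1 by 0.42 on the log2 scale (SE 0.136, edgeR adjusted p = 0.0174) and Mettl6 by 0.20 (SE 0.0596, adjusted p = 0.0093). The background was high: set differences were called for 5736 genes (43.8%), 2822 higher and 2914 lower in set 2. The call on Mettl2 was lost without cKO replicate 2 (adjusted p = 0.0810) and without WT replicate 2 (0.0519). Dalrd3 had a log2 difference of 0.44 (SE 0.255, edgeR adjusted p = 0.178), with an adjusted p of 0.0367 without WT replicate 1. Mettl8 had -0.17 (SE 0.1205, edgeR adjusted p = 0.281) and Sars -0.031 (SE 0.0463, edgeR adjusted p = 0.619).

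SMART-seq2 does not mark the strand, so reads in the overlap of Mettl8 and Dcaf17 cannot be assigned to 1 of the 2 genes. Dcaf17 averaged 42.4 ± 4.40 CPM in libraries labelled cKO and 47.2 ± 4.95 CPM in WT libraries (SD, n = 6 each; log2 fold change -0.14, SE 0.0861, edgeR adjusted p = 0.857). A ratio of the 2 genes was added after seeing the data. Mettl8 counts per Dcaf17 count were 1.63, 1.61, 1.55, 1.63, 2.09 and 1.81 in libraries labelled cKO, against 0.865, 1.26, 1.12, 0.891, 0.720 and 1.07 in WT libraries. The groups did not overlap, and the set-centred log2 ratio differed by 0.81. The Mettl8 counts in the ratio had already separated the groups, so the ratio is no independent support and no test is given.

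The annotation listed 24 genes within 500 kb of Mettl8, of which 13 were in the count table and 9 were tested. None passed the threshold in edgeR, none had an unadjusted p under 0.05, and the smallest adjusted p was 0.843. Log2 fold changes were above 0 for 5 and below 0 for 4, with a median of 0.013. The highest was 0.16 for Gad1, an enzyme of GABA synthesis, and the lowest -0.15 for Metap1d, a mitochondrial methionine aminopeptidase. Between them lay Gorasp2 (0.036), a Golgi stacking protein, Tlk1 (0.024), a kinase of chromatin assembly, Hat1 (0.015), a histone acetyltransferase, and Cybrd1 (0.013), a ferric reductase. Slc25a12, the mitochondrial aspartate and glutamate carrier, had -0.061 and Dync1i2, a dynein chain, -0.076. Sp5, Dlx1, Dlx1as and Dlx2 had at most 8 counts in any library and were not tested.

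**Figure D3:**
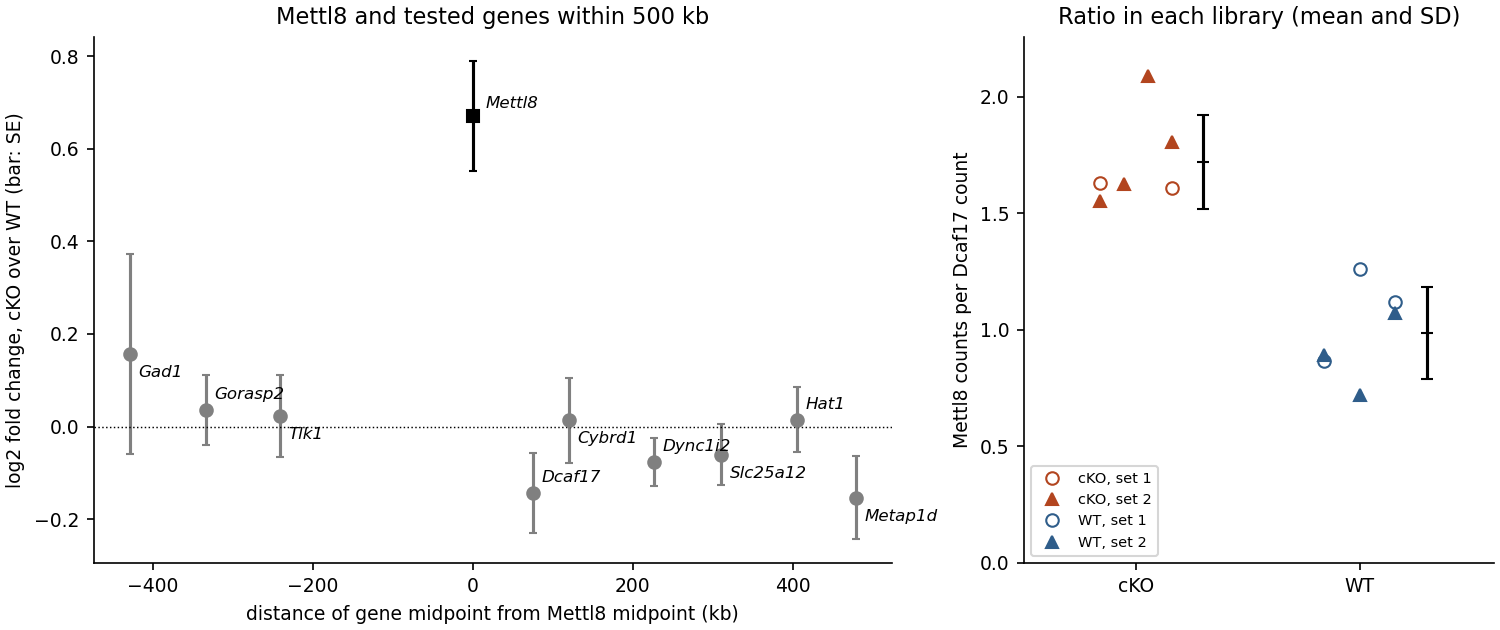
Left, log2 fold change of cKO over WT with its SE for Mettl8 (square) and the 9 tested genes within 500 kb (circles) by distance between gene midpoints in kb; right, Mettl8 counts per Dcaf17 count in each library with the mean and SD. Mettl8 lies at 0.67 and its neighbours between -0.15 and 0.16; the ratios run from 1.55 to 2.09 in cKO libraries and from 0.720 to 1.26 in WT libraries.

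Eaf1, a transcription elongation cofactor that starts next to Mettl6, averaged 19.6 ± 1.79 CPM in libraries labelled cKO and 15.96 ± 3.03 CPM in WT libraries (SD, n = 6 each; log2 fold change 0.26, SE 0.108, edgeR adjusted p = 0.803). The unadjusted p of Eaf1 in edgeR was 0.0269, and 6.14% of all genes were under 0.05. On the other side Sh3bp5 had a log2 fold change of 0.19 (SE 0.208, edgeR adjusted p = 0.903). Dalrd3 lies between Ndufaf3, an assembly factor of complex I, and Wdr6, which it overlaps by 463 bp. Ndufaf3 had a log2 fold change of -0.082 and Wdr6 of 0.0090 (edgeR adjusted p = 0.888 and 0.989), and Wdr6 was lower in set 2 than in set 1 by -0.84 on the log2 scale (adjusted p = 2.97e-08). Beside Mettl2, Tlk2 had 0.036 (edgeR adjusted p = 0.970), and Efcab3 had at most 2 counts. Beside Sars, Celsr2 had 0.17 (edgeR adjusted p = 0.806), and 1700013F07Rik had at most 4 counts.

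Other genes of tRNA modification and charging were described by lists. Over all 13105 genes the log2 fold change had a median of -0.0010, with 49.6% above 0. Of the 9 genes that modify the adenosine beside the anticodon, 8 were tested, and none passed in edgeR, with 4 above 0 and 4 below, a median of -0.0037 and 0 under an unadjusted p of 0.05. Its extremes were Yrdc (0.17) and Cdkal1 (0.13) at the upper end, which act in making t6A and its thiomethylated form, and Cdk5rap1 (-0.27) and Osgepl1 (-0.068) at the lower end, both acting on mitochondrial tRNA. Of the 7 synthetases for serine, threonine and arginine tRNAs, none passed, with 3 above 0 and 4 below, a median of -0.012 and 0 under an unadjusted p of 0.05. Sars2, the mitochondrial seryl-tRNA synthetase, had 0.30 (SE 0.203) and Tars, the threonyl-tRNA synthetase of the cytosol, 0.081, while Tarsl2 had -0.020 and Rars2, the mitochondrial arginyl-tRNA synthetase, -0.057.

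The 5 listed genes of the AlkB family, which includes RNA demethylases, had a median of -0.0081, with 2 above 0 and 3 below. None passed or had an unadjusted p under 0.05. They ran from -0.044 for Fto and -0.043 for Alkbh1 to 0.0025 for Alkbh5 and 0.038 for Alkbh8. All 25 other genes of tRNA methyltransferases and their subunits were tested, 12 above 0 and 13 below, with a median of -0.00023. None passed and 1 had an unadjusted p under 0.05. That 1 was Trmt10a, a guanosine methyltransferase listed as Rg9mtd2, at -0.35 (SE 0.144, edgeR adjusted p = 0.803). Trmt61a, which makes 1-methyladenosine, had -0.29, Trmt12, of wybutosine synthesis, 0.30, and Trmt44, listed as 2310079F23Rik, 0.25. Of 14 other METTL genes, 13 were tested, with 4 above 0 and 9 below and a median of -0.0029, and none passed or had an unadjusted p under 0.05. Mettl3, the N6-methyladenosine writer, had -0.048 and Mettl13 -0.052, and Mettl16 had 0.085 and Mettl23, listed as 1110005A03Rik, 0.14.

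**Figure D4:**
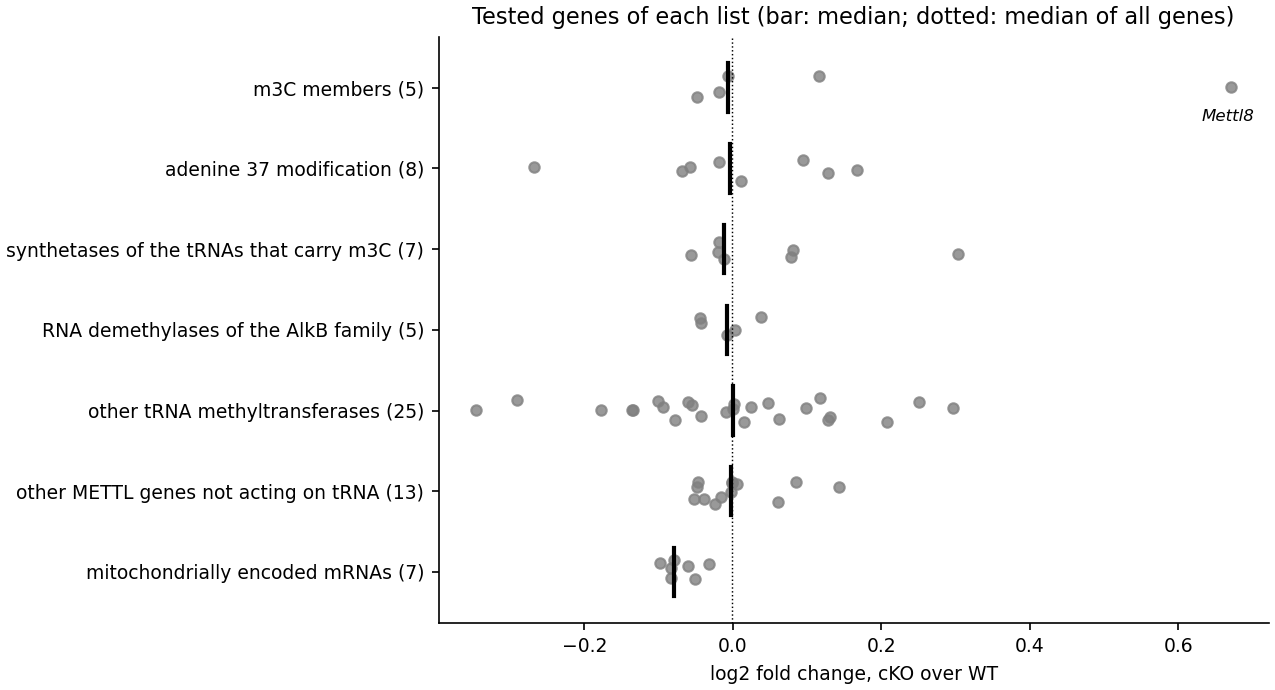
Log2 fold change of cKO over WT (horizontal axis) of each tested gene (points) in 7 lists, with the median of the list as a bar and the median of all genes dotted. Mettl8 lies at 0.67, beyond the range of the other lists, which run from -0.35 to 0.30.

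Of the 13 mRNAs of the mitochondrial genome, whose translation uses the METTL8 substrate tRNAs, 7 passed the filter. All 7 had a log2 fold change below 0, with a median of -0.080, none passed in edgeR and 1, mt-Cytb, had an unadjusted p under 0.05 (adjusted p = 0.806). The 7 come from the same genome and libraries, so their shared direction is not 7 independent results. A link to METTL8 was not tested. The extremes were mt-Nd2 (-0.098) and mt-Nd6 (-0.084) at the lower end and mt-Nd5 (-0.050) and mt-Co1 (-0.033) at the upper end. Of the other 6, mt-Nd3, mt-Nd4l, mt-Atp6 and mt-Atp8 were listed at 0 in all 12 libraries, and mt-Co2 and mt-Co3 at 0 in all but 1 library each. Every cell uses these mRNAs, so a listed 0 does not show that they were absent. The labels do not say how reads shared between genes or with nuclear copies were counted.

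The 5 genes whose set-centred log2 CPM was nearest to that of Mettl8 over the 12 libraries, of 13104 ranked, were Arvcf, Ccdc111, 1700029I01Rik, Ndufab1 and Fam70a. Their root mean square differences from it were 0.221 to 0.236, against 0.449 for the median gene and a spread of Mettl8 about its set means of 0.408. Their own log2 fold changes ran from 0.34 to 0.59, a direction that their selection by likeness to Mettl8 in the same libraries fixes. Arvcf encodes a catenin and Ndufab1 the mitochondrial acyl carrier protein. The other members were not near: Sars ranked 4200, Mettl6 5749, Mettl2 8650 and Dalrd3 10116.

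The product of METTL8 was read in the separate HAC-seq libraries. The listed C at base 29 of each mitochondrial substrate tRNA gene was taken, in a table that keeps sites by reads in WT libraries. At the threonine tRNA site (mt-Tt, plus strand, chrMT:15317) the cleavage ratio was 2.10 ± 0.405% in cKO libraries (SD, n = 3) and 94.4 ± 0.483% in WT libraries (SD, n = 4), at 1767 to 4224 reads. At the serine tRNA site (mt-Ts1, minus strand, chrMT:6910) it was 0 in the 3 cKO libraries, where 1737, 1623 and 2050 reads allow at most 0.185%, and 2.55 ± 0.877% in 4 WT libraries (SD), on 480, 343, 447 and 321 reads. Coverage at that site thus also moved with genotype. The table lists it through its WT reads alone, so the direction was fixed by the authors' filter. At mt-Tt the same filter favoured a higher WT value, so no test is given for either site. These libraries were labelled cKO and WT separately from the RNA-seq ones, and the labels do not tie the 2 assays' replicates to each other.

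The HAC-seq table also listed cytidines in mRNA, kept by reads in WT libraries. It held 14 sites on the strand of Sars, between chr3:108427345 and chr3:108445052, none for Mettl8, Mettl2 or Mettl6, and 2 named for Dalrd3 that lie on the opposite strand, that of Wdr6. Summed coverage of the 14 Sars sites, scaled to the coverage of the whole table, was 1209, 1327 and 1102 reads in cKO libraries, against 1224, 1340, 1465 and 1480 reads in WT libraries. The groups overlapped, and the log2 difference was -0.18 (exact permutation, two-sided, p = 0.114). Scaled by the median of ratios over sites, it was 0.038 (exact permutation p = 0.714), so its direction rested on the scaling. Because sites were kept by WT reads, the filter could favour WT values, so neither p-value decides whether Sars coverage differed. The cleavage ratio over the 14 sites ran from 4.98 to 5.70% in cKO libraries and from 3.66 to 5.30% in WT libraries, ranges that overlap.

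**Figure D5:**
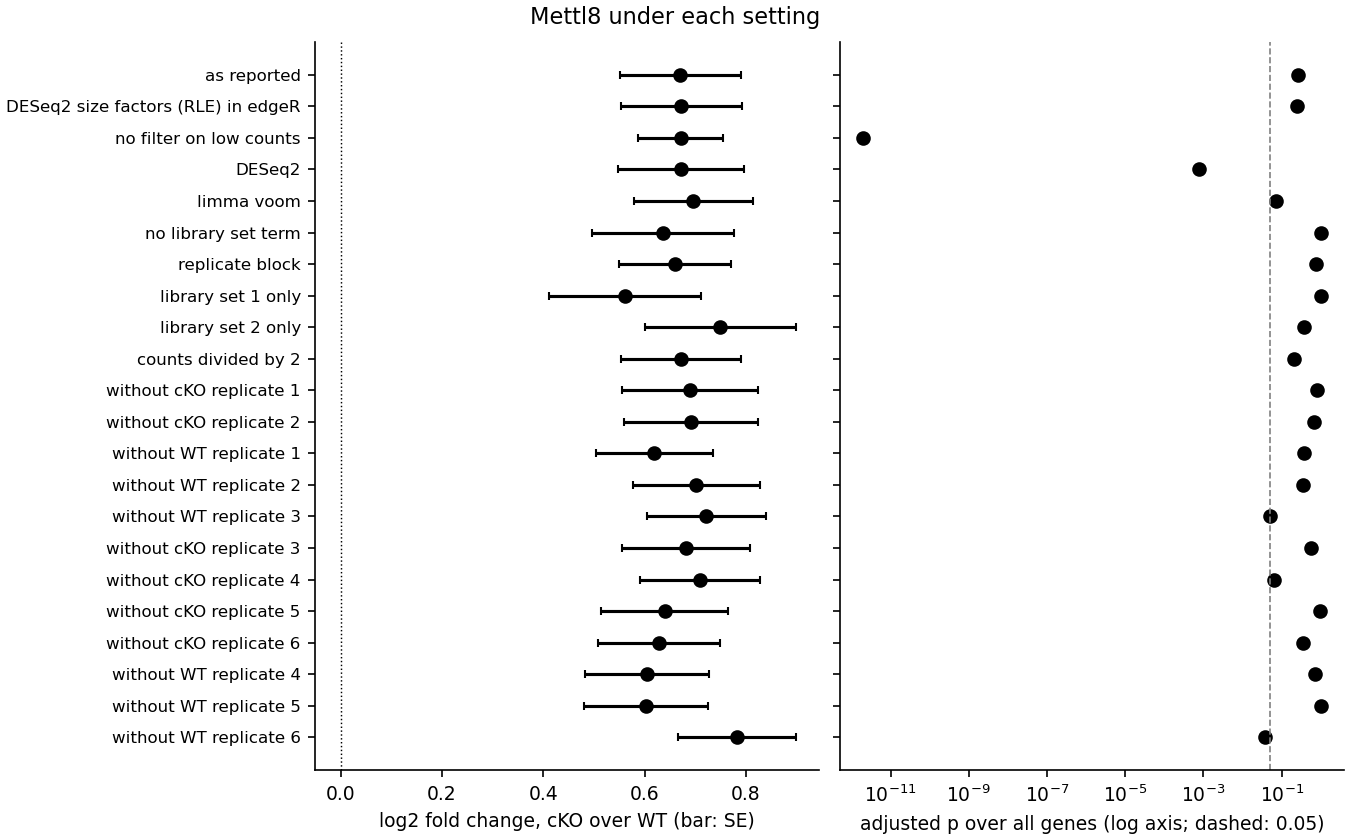
Log2 fold change of Mettl8, cKO over WT, with its SE (left) and its adjusted p over all genes on a log axis (right) as reported and under each of 21 alternatives. The log2 fold change stays between 0.56 and 0.78, while the adjusted p runs from 1.96e-12 to 1.00 (rounded) and is under 0.05, the dashed line, in 3 alternatives.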

How the data were processed

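RNA-seq (SMART-seq2, 300 ng of total RNA) and HAC-seq (8000 ng) libraries were grouped by the labels. Per the submitters' processing notes, the tools included STAR 2.5.2a, Trimmomatic 0.32 and bcl2fastq 2.17.1.14 and the build was GRCm38 (GRCm38.p6 for HAC-seq); no counting program is named in the labels. The deposited RNA-seq values are raw counts per gene. Odd numbers made up 17.4% of the low counts (1 to 10) and 50.1% of the high ones (101 to 1000). Counting both mates of a pair would give this, and printed counts would then be about 2 times the number of fragments; an alternative with counts divided by 2 gave Mettl8 a log2 fold change of 0.67 (adjusted p = 0.204). For each HAC-seq site the authors deposited a signal of read starts 1 bp downstream, a count of all reads, their quotient as a fraction and a p-value, which was not used. The 135582 entries held 118890 distinct sites. The number of per-sample columns left out was 0.

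A generalized linear model was fitted to the counts by edgeR 4.0.16 under R 4.3.3 (TMM, filterByExpr by genotype, quasi-likelihood F test, two-sided, library set as covariate), over all 13105 genes kept, with Benjamini-Hochberg adjustment and a threshold of 0.05. The script was tested on simulated data. Log2 CPM used a prior count of 2. DESeq2 1.42.0, limma 3.58.1 (voom) and the settings of the closing section were alternatives. Permutation tests ran in Python 3.11.15 over 350 splits within sets, or 35 splits of 7 HAC-seq libraries. Motifs were counted in RefSeq start windows of GRCm38.p6. Sampling noise alone gives a chi-square per gene of about 1 for independent reads, and more if both mates of a pair were counted. No library pair was near 1: the smallest of 66 pairs was 7.07, between cKO 2 and WT 2, and the smallest within a group 8.89. The named genes were the 5 members, the extremes of each list, the neighbours and the 5 genes nearest to Mettl8 in pattern. Members and lists were chosen with earlier results of these data known. The 95% intervals of fold changes include the spread between libraries; the limit given for a count of 0 covers counting error only.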

Additional observations from a re-analysis of the deposited data

Results flagged for a closer look

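Among 13 groups of values examined for a library far from the others, 2 had one; chance gives about 1 in 20. Both were in WT HAC-seq libraries. At the mt-Tt site WT replicate 1 had a cleavage ratio of 93.7%, below the other 3 at 94.6 to 94.7%. At the mt-Ts1 site WT replicate 4 had 1.25%, below the other 3 at 2.92 to 3.13%, on 321 reads. No group of the 5 members' RNA-seq levels had such a library.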

How the results depend on the processing

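The count of genes called between genotypes, 0 in edgeR, was 65 without the filter on low counts (20312 genes tested), 2 in DESeq2, 1 in limma voom and 2 in set 2 alone, and 0 to 1 with each library left out. The interaction count, 0, was 35 without the filter and 0 to 1 with each library left out. Mettl8 had a log2 fold change of 0.67 without the filter and in DESeq2, now past the threshold, and 0.60 to 0.78 with each library left out. Among the other members, all short of the threshold, Mettl2 changed sign without the set term (0.063), under the replicate block (0.067), in set 2 alone (0.0066), in the permutation by total count (0.0014) and over all 12 libraries (0.070), and ran from -0.097 to 0.077 with each library left out. In set 1 alone Mettl6 was 0.031, Dalrd3 -0.23 and Sars 0.028. Dalrd3 ran from -0.049 to 0.28 with each library left out, and the Mettl2 interaction from -0.24 to 0.37. Sars HAC-seq coverage was 0.038 under the median of ratios. The mt-Tt difference stayed between -92.6 and -92.1 percentage points with each library left out. The cause of the changes named above was not tested. Under the replicate block edgeR called 0 genes and gave Mettl8 a log2 fold change of 0.66 (adjusted p = 0.750), and Sars HAC-seq coverage changed no call. The numbers share no stated source: same-numbered libraries correlated from -0.36 to 0.62 in their deviations, and 2 of 6 best with their own number. Depth limits Dalrd3, at 31 to 88 counts.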
